A study of Schizosaccharomyces pombe with 4 samples.

Results

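Transcript levels of wild-type fission yeast in logarithmic growth were read from the wild-type dye channel of 4 spotted ORF arrays. Of the 5070 probe names in the array layout, 4829 were gene probes and were ranked, and 4792 of these were measured on all 4 arrays. The level of a probe was its median signal minus its median local background, averaged over its 2 spots. Each probe was given a percentile among the gene probes of its array, from 0 for the dimmest to 100 for the brightest, and the mean percentile over the arrays is called its rank level here (± SD, n = 4 arrays unless stated). Spots for controls, buffer or no DNA were not ranked, nor were probes for introns or intergenic DNA or products that the layout marks as missing. The rule uses no comparison between groups, and the ranking is given as a description with no test. Brightness also depends on a probe's own sequence and length, so an order of rank levels is an order of probes and only approximately one of transcripts.

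On each array the other dye carried RNA of a *sim3* mutant, sim3-143 on arrays 1 and 2 and sim3-205 on arrays 3 and 4. *sim3* encodes a nuclear histone-binding protein that acts on CENP-A, the histone H3 variant of centromeres, and each allele carries a missense mutation. The wild-type RNA, labelled only as wt, was in Cy5 on arrays 1 and 3 and in Cy3 on arrays 2 and 4, and all samples were total RNA of cultures in logarithmic growth. Its further genotype, the medium and the temperature are not given in the sources used here, nor is it stated whether arrays shared an RNA extract. The p-values below therefore measure only the spread between arrays, which may be technical. Arrays 1 to 3 share a slide code in their titles and array 4 has another, so the other slide code cannot be told apart from that single sim3-205 array.

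In growing yeast a large part of the mRNA encodes the machinery of protein synthesis. Glycolytic enzymes, histones and chaperones are also known as abundant transcripts, while genes of mating and meiosis are kept low as long as nutrients last, in part because meiotic transcripts are removed by an RNA elimination system. Genes of cell-cycle control and of the kinetochore are typically transcribed at modest levels. The arrays read bulk RNA, in which fewer cells with a transcript and less transcript per cell cannot be told apart.

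The median level of the gene probes was 2491, 2597, 944 and 1199 on arrays 1 to 4, in scanner units that were not scaled between arrays. The 2 spots of a probe ranked alike, with Spearman correlations of 0.977 to 0.988. Between arrays the Spearman correlation of wild-type levels was taken across genes, which are not independent replicates. It was 0.898 for arrays 1 and 2, 0.784 for arrays 1 and 3, 0.743 for arrays 1 and 4, and 0.618 for arrays 3 and 4. With the gene names written in each file it was -0.00104 for arrays 1 and 2, which is why spots were named by position. The written names gave 0.743 for arrays 1 and 4 and 0.768 for arrays 2 and 3, so the names went together within these pairs. Which of the 2 namings is right was not tested. In 3 of the 32 grids of array 3 (grids 21, 25 and 29) the wild-type signals did not follow the mutant ones (Spearman correlations across genes of 0.112, -0.0791 and -0.118), and 439 genes lie there. Without them the correlation was 0.956 for arrays 1 and 3, but 0.738 for arrays 1 and 4 and 0.719 for arrays 3 and 4, so the low values of array 4 remained. Array 4 followed array 2 at 0.745 in grids 1 to 24 (3616 genes) and at 0.946 in grids 25 to 32 (1202 genes), where arrays 1 and 2 gave 0.888 and 0.913. These values of array 4 stand in every rank level below. These grids, called unrelated below, were kept in the ranking, and the text gives values without them for the results they moved most. On the signal plot 99.8%, 99.9%, 93.6% and 99.3% of the gene levels lay above the 95th percentile of the empty spots on arrays 1 to 4, while the median of the E. coli probes fell inside the lower part of the gene distribution.

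**Figure D1:**
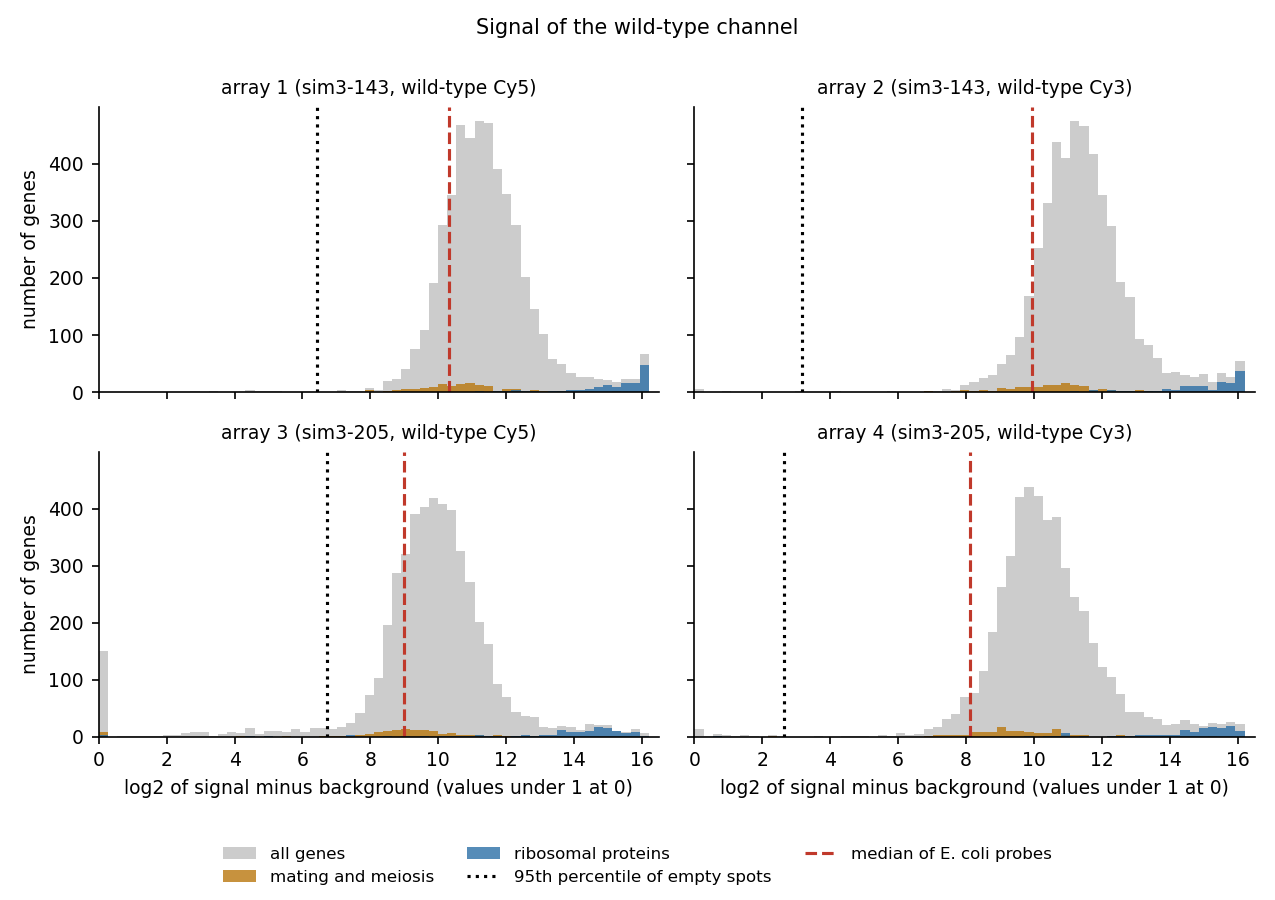
Number of genes (vertical axis) against log2 of wild-type signal minus background (horizontal axis, values under 1 drawn at 0) on each of the 4 arrays, with ribosomal protein and mating and meiosis probes drawn over all genes, the 95th percentile of the empty spots dotted and the median of the E. coli probes dashed. Ribosomal protein probes sit at the bright end on all 4 arrays, and the column at 0 on array 3 holds genes of its 3 unrelated grids and other probes with no signal over background.

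The brightest transcripts encoded ribosomal proteins, translation factors, ubiquitin fusions and glycolytic enzymes. The 20 highest were, in order, *rpl1202*, *ubi3*, *ef1-b-x2*, *rps1102*, *rps801*, *ef1-b*, *rps901*, *rpl13*, *tef1-e*, *fba1*, *uap2*, *rps802*, *rps7*, *rpl2802*, *rpl902*, *gpm1*, *tpi1*, *ubi5*, *rpl1002* and *rps502*, with rank levels of 99.8 to 99.5. All 20 had a saturated spot on at least 1 array, as had 68 of the highest 100, so their order among themselves cannot be resolved. The gene at rank 100 had a rank level of 97.61 and the next gene 97.60.

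*rpl1202*, which encodes a protein of the large ribosomal subunit, had wild-type levels of 65379, 65426, 60606 and 65105 on arrays 1 to 4, at or near the scanner's limit. *ubi3*, which encodes ubiquitin fused to a ribosomal protein, read 65370, 65426, 65376 and 65426, at the limit on all 4 arrays. *fba1*, the aldolase of glycolysis, read 65368, 65419, 57791 and 65424. Most of these probes were below the limit on array 3, the dimmest of the arrays. There *rps502*, for a small-subunit protein, read 29340 and *ef1-b-x2*, a probe named for translation elongation factor 1, read 35486, against 65376 for *ubi3*, so probes that were close together on the other arrays differed on this one.

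Of the highest 100 probes, 71 were for cytosolic ribosomal proteins and 7 for translation factors, lists with 133 and 37 of all 4829 probes. A further 6 were for glycolysis and 2 for chaperones (*hsp90* and *hsp70*), from lists of 16 and 19 probes. Of the other probes, *rpa12* encodes a subunit of RNA polymerase I and *meu7* is named for its rise in meiosis. The 12 in no list were *ubi3*, *uap2*, *ubi5*, *ubi1*, *cpc2*, *tma19*, SPBC16G5.17, *ubi2*, *tpx1*, *utp20*, *trx2* and *btf3*. Several of these are also tied to protein synthesis or folding. *ubi1*, *ubi2* and *ubi5* carry ubiquitin joined to a ribosomal protein, *cpc2* encodes the ribosome-bound protein known as RACK1, and *btf3* a subunit of the complex that meets new polypeptides. *tpx1* and *trx2* encode a peroxiredoxin and a thioredoxin. *cpc2* stood at 98.6, 98.8, 98.6 and 98.6 on arrays 1 to 4 and *tpx1* at 97.9, 98.2, 98.1 and 98.2, so both kept nearly the same place on every array.

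The 100 brightest probes of an array held 25.6%, 23.9%, 35.1% and 32.4% of the summed gene signal on arrays 1 to 4. Ribosomal protein probes alone held 24.5%, 21.8%, 29.9% and 28.9%. Both shares were lowest on arrays 1 and 2, which had 133 and 100 saturated spots, against 20 and 31 on arrays 3 and 4, and saturation caps the brightest signals. The part of saturation in the difference was not tested.

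The cytosolic ribosomal proteins formed the brightest group. Their 133 probes, of which 132 were measured on all 4 arrays, had a median rank level of 97.9, against 49.0 for all genes. Of the 132, 113 (85.6%) lay in the top decile of all genes and 0 in the bottom decile. The group's median was 98.05, 97.76, 98.07 and 97.97 on arrays 1 to 4 and so moved by less than 1 percentile between arrays. The 54 probes of the small subunit had a median of 98.02, the 70 of the large subunit 98.11 and the 7 of the acidic stalk, which recruits translation factors to the ribosome, 97.6. The 3 medians thus lay within 1 percentile.

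Most ribosomal proteins of fission yeast are encoded by more than a single gene. With the unrelated grids left out, 38 proteins had probes for more than a single copy, 81 copies in all, and the highest and lowest copies of a protein differed by a median of 1.09 percentiles. In 18 proteins the difference was under 1 percentile. Copies share sequence, so each probe may also read its partner, and the part of this in their likeness was not tested. In 7 proteins the copies differed by over 10 percentiles, namely the stalk protein of the *rpp101* and *rpp102* genes, *rpl32*, *rpl24*, *rpl3*, *rpl19*, *rps19* and *rpl7*. The gap in *rpl3* rests on array 4 alone, where *rpl302* stood at 0.332, against 95.7, 95.7 and 95.4 on arrays 1 to 3. The widest gap was in the stalk protein, where *rpp101* stood at 97.6 and *rpp102* at 25.1. In *rpl32* the copy *rpl3202* stood at 98.9 and *rpl3201* at 62.9.

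*rpp102* was also the lowest of all ribosomal protein probes in the full ranking, at 26.6 ± 18.3, from percentiles of 1.55, 40.6, 24.4 and 39.9 on arrays 1 to 4. It was low on all arrays but lowest by far on array 1. *rpl302*, 1 of the 2 genes for the large-subunit protein L3, was bright on arrays 1 to 3 (percentiles of 95.7, 95.7 and 95.4, from signals of 18283, 21893 and 6483) and at background on array 4 (0.332, from a signal of 1.5). On array 4 the mutant level was 2.0 and the wild-type level 1.5, so neither dye gave a signal there. Its mean of 71.8 ± 47.6 describes none of the arrays.

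**Figure D2:**
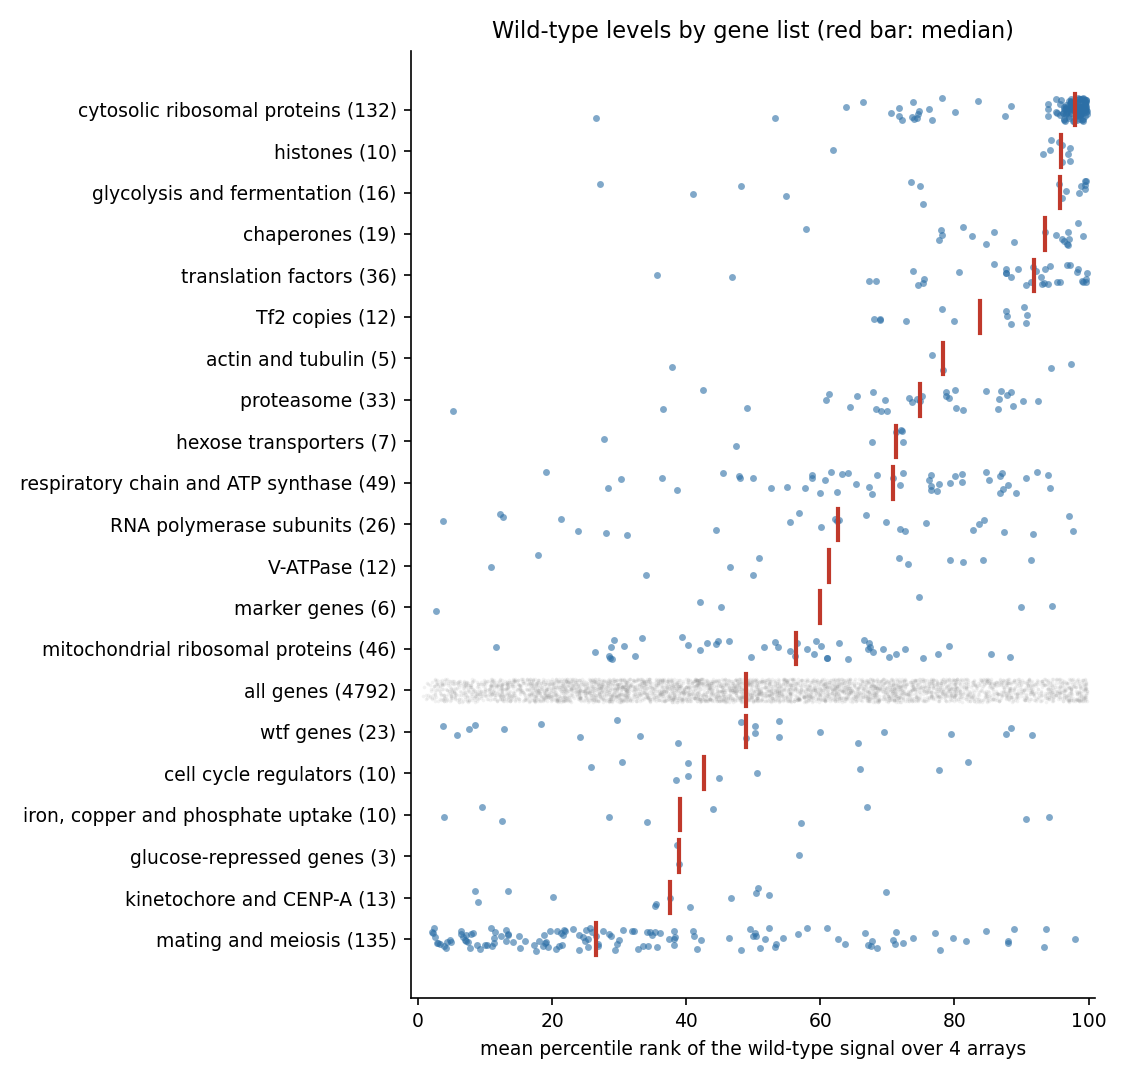
Mean percentile rank of the wild-type signal over 4 arrays (horizontal axis, 0 for the dimmest and 100 for the brightest probe) for each gene of the lists and for all genes, with the number of genes in parentheses and the median of each list as a red bar. Ribosomal protein genes crowd at the right edge with a median of 97.9, and mating and meiosis genes at the left with a median of 26.6.

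Translation factors came close to the ribosomal proteins. Their 36 probes on all arrays had a median rank level of 91.9, and 92.9 without the unrelated grids. At the top, besides the elongation factor 1 probes, were *eft201*, for the elongation factor that moves the ribosome along, at 99.1 ± 0.913, and *tif512*, for the translation factor known as eIF5A, at 99.1 ± 0.455. *tef3* encodes the fungal elongation factor 3 and stood at 97.4, 97.9, 96.4 and 97.3 on arrays 1 to 4. SPCC417.08, a second probe for *tef3*, stood near it on 3 arrays but read below its background on array 3, in an unrelated grid. Its percentiles were 98.2, 98.5, 0.187 and 98.2, which made it the gene probe with the largest SD of all (49.0). The lowest factor was *tif452*, for a second cap-binding protein eIF4E, at 35.6 ± 11.2.

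Genes of the pathway from glucose to ethanol were bright, with 9 of 16 probes in the top decile and a median of 95.8. Among them the aldolase gene *fba1*, the mutase gene *gpm1*, *tpi1* (triose phosphate isomerase) and *eno1* (enolase) all exceeded 99.4. *gpd3*, for glyceraldehyde phosphate dehydrogenase, read 60642, 63078, 30394 and 54549 on arrays 1 to 4, at percentiles of 98.5 to 99.1. *pyk1*, for pyruvate kinase, stood at 98.6 ± 0.62. The early steps were a little lower, with *hxk2* (hexokinase) at 96.7 ± 1.22, *pgi1* at 96.0 ± 0.63 and *pfk1* (phosphofructokinase) at 95.6 ± 0.59. Each of these 9 probes exceeded the 95th percentile on every array.

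The fermentation genes *adh1* (alcohol dehydrogenase) and *pdc101* (pyruvate decarboxylase) lie in the unrelated grids of array 3. *adh1* stood at 99.2, 97.7 and 98.6 on arrays 1, 2 and 4 but at 5.75 on array 3, and *pdc101* at 98.8, 99.3 and 99.2 but at 2.02. Without those grids the 2 genes had rank levels of 98.5 and 99.1 and the pathway a median of 97.5. The probe for *pgk1* departed from its neighbours in the pathway. *pgk1* encodes phosphoglycerate kinase, the step between *gpd3* and *gpm1*, yet its percentiles were 51.4, 28.4, 45.2 and 38.8 and its signals 2566, 1673, 846 and 943. Whether that probe failed was not tested. The second hexokinase gene *hxk1* stood at 73.5 ± 14.4, and *pdc202* at 27.1 ± 6.48.

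Of the 10 histone probes, 9 for core histones lay between 93.2 (*hhf3*) and 97.3 (*h3.1*), and the list's median was 95.8. The 3 probes for H3, *h3.1*, *hht3* and *hht2*, were the highest, at 97.3 ± 0.535, 97.2 ± 0.254 and 96.9 ± 0.357, and could not be told apart within their spread. The copies of H3 and of H4 share coding sequence, and their probes may read each other. The H2A variant gene *pht1* stood well below its core relatives, at 61.9 ± 8.79. The gene of the H3 variant of centromeres, *cnp1*, was lower again at 35.4 ± 12.6.

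Chaperones had a median of 93.5 over 19 probes. *hsp90* encodes the chaperone of that name and stood at 99.6, 99.7, 98.3 and 99.3 on arrays 1 to 4, and *hsp70* at 97.8, 98.9, 97.2 and 99.7. Behind them came *bip1*, for the chaperone of the endoplasmic reticulum (97.0 ± 0.659), *ssa1* (96.9 ± 0.651) and the mitochondrial *hsp10* (96.7 ± 1.02) and *mcp60* (96.0 ± 1.22). The 8 cct genes, which encode the ring that folds actin and tubulin, had a median of 79.7 and ran from 57.8 (*cct8*) to 88.8 (*cct4*). Of 3 stress-induced genes, *hsp16* and *hsp104* read lower in Cy5 than in Cy3 and *hsp9* higher, and none passed the dye test described below. *hsp16* stood at 88.2 and 93.2 with the wild-type in Cy5, against 96.6 and 96.1 in Cy3, and *hsp104* at 73.8 and 79.3 in Cy5, against 93.3 and 92.5 in Cy3. *hsp9* stood at 96.2 and 95.5 in Cy5, against 94.7 and 94.1 in Cy3.

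**Figure D3:**
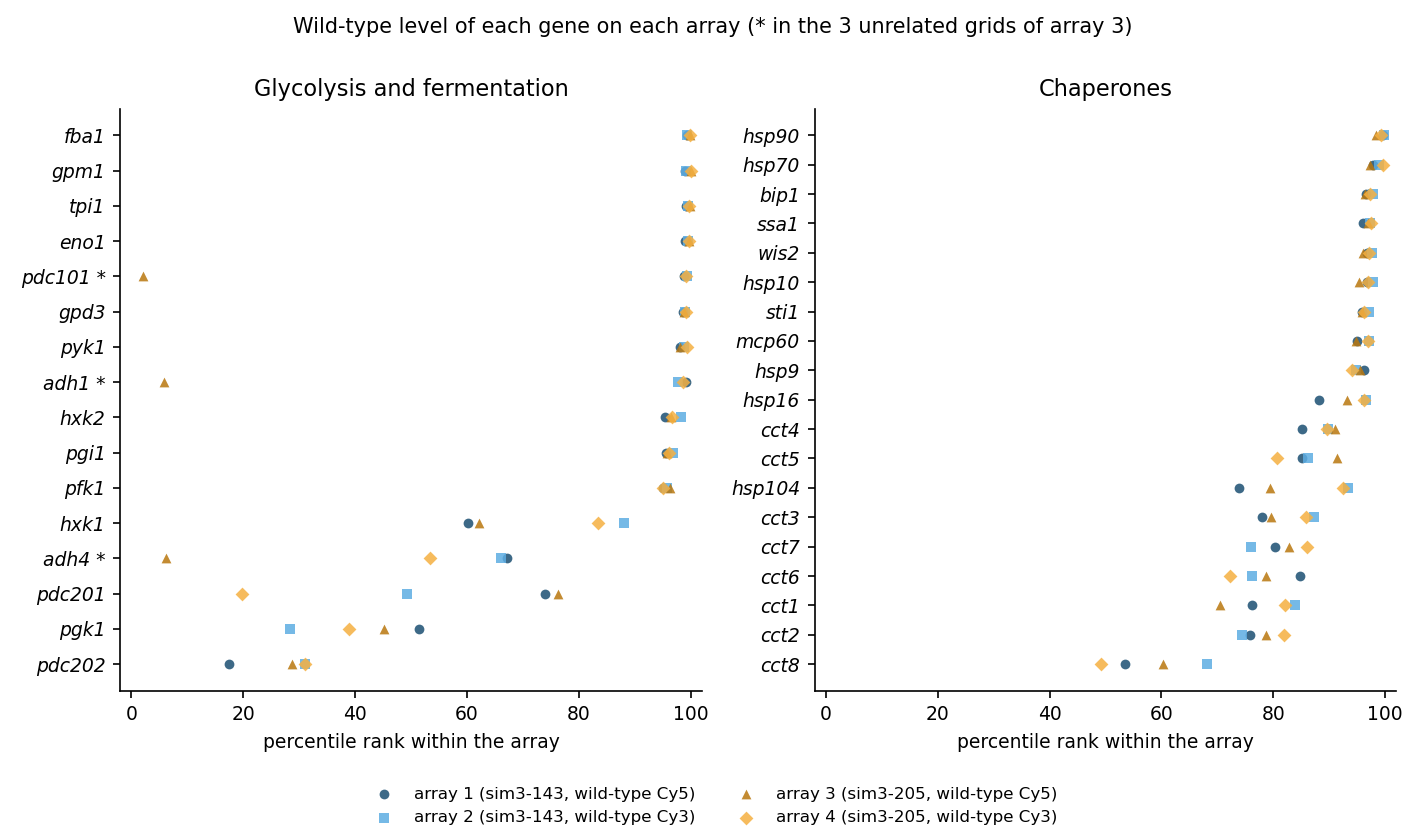
Wild-type percentile (horizontal axis) of each gene of the glycolysis and fermentation list and of the chaperone list, 1 point per array. Colour and marker show the array, and a star marks genes in the 3 unrelated grids of array 3. Bright genes such as *fba1* keep their place on all 4 arrays, while *pdc101* and *adh1* drop to near 0 on array 3.

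A middle layer was formed by lists of large complexes, whose medians lay between those of the lists above and that of all genes. The proteasome, which degrades ubiquitin-tagged proteins, had a median of 74.8 over 33 probes, and 78.3 without the unrelated grids, from *rpn10* at 5.28 to *rpn5* at 92.5. The respiratory chain and ATP synthase had 70.8 over 49 probes. Highest among these were *cox2* at 94.2 ± 1.63 and *cyc1*, for cytochrome c, at 94.0 ± 0.37. *cox2*, *cob* and *cox1* are encoded in the mitochondrial genome, and the 3 had percentiles of 75.9 to 96.6 over the arrays. RNA polymerase subunits had a median of 62.7, the V-ATPase, the proton pump of the vacuole, 61.3, and mitochondrial ribosomal proteins 56.4. The median of the mitochondrial list, taken by names that begin with mrp or img, was thus far below that of the cytosolic list. Its 46 probes ran from 11.6 (*img2*) to 88.4 (*mrpl23*). The cytosolic probes ran from 26.6 (*rpp102*) to 99.8 (*rpl1202*), so the 2 ranges overlap.

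Genes of the cytoskeleton and of the cell cycle covered a wide range. *act1*, for actin, had signals of 35715, 48773, 12854 and 24074 on arrays 1 to 4 and a rank level of 97.4 ± 0.495, and *pma1*, for the plasma membrane proton pump, 97.3 ± 0.333. The tubulin genes were lower, with *atb2* at 78.3 ± 8.68, *nda3* at 76.6 ± 5.25 and *nda2* at 37.8 ± 13.6. *cdc2*, for the cyclin-dependent kinase, stood at 44.9 ± 11.2, and these 4 genes were above the empty spots on every array. Among cell cycle regulators *cdc22*, for ribonucleotide reductase, was the highest at 82.0 ± 8.89 and *rum1*, for an inhibitor of Cdc2, the lowest at 25.9 ± 10.4, with a median of 42.6 over the 10 probes on all arrays.

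Genes that answer to the medium differed widely among themselves. *nmt1*, which thiamine represses, was dim, at percentiles of 0.394, 0.313, 6.80 and 2.51, and above the median of the E. coli probes on 0 arrays. Among iron, copper and phosphate uptake genes *fio1*, for an iron oxidase, stood at 94.1 ± 2.73 and *pho84*, for a phosphate transporter, at 90.6 ± 1.7, while *frp1*, for a ferric reductase, stood at 3.85 ± 1.76. The median of that list was 39.1, and 32.8 without the unrelated grids. Of the hexose transporters, 5 of 7 (*ght6*, *ght8*, *ght3*, *ght2* and *ght5*) had rank levels between 67.7 and 72.4. *ght8* lies in an unrelated grid and stood at 91.3 without it. The glucose-repressed genes *inv1*, *gld1* and *fbp1* were at 56.8, 39.0 and 38.6, the last at 51.0 without its unrelated grid. None of the 3 was in the bottom decile.

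Of the marker genes used to build strains, *leu1* was bright on all arrays, at percentiles of 94.6, 94.1, 95.9 and 93.3, and *lys1* at 89.9 ± 1.94. *ura4* was at 45.1 ± 17.2. *arg3*, for an enzyme of arginine synthesis, was among the dimmest genes of the array, at signals of 349, 154, 163 and 202 and percentiles of 0.559, 0.250, 7.09 and 2.61, above the E. coli median on 0 arrays. The strain's genotype at these genes is not given in the sources used here.

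Genes of mating and meiosis made up the dimmest list. Its 135 probes had a median rank level of 26.6, against 49.0 for all genes, with 38 (28.1%) in the bottom decile and 6 (4.44%) in the top. The median was 28.8, 24.4, 27.8 and 23.0 on arrays 1 to 4. By name, the 80 mug genes, called after their rise in meiosis, had a median of 26.1, the 17 meu genes 25.1 and the 11 rec genes of meiotic recombination 15.0. The 8 mde genes, named as targets of the meiotic regulator Mei4, had a median of 16.8. At the bottom were *mug96* (2.03 ± 2.8), *mug153* (2.23 ± 2.14), *mug9* (2.38 ± 2.78), *mug95* (2.53 ± 3.58) and *meu6* (2.79 ± 2.89), which stood below the 10th percentile on every array.

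The regulators of entry into meiosis were not all alike. *map1*, for a mating-type transcription factor, stood at 3.88 ± 3.15, *ste11*, for the factor that starts mating, at 21.3 ± 11.5 and *mei2*, for the RNA-binding protein that starts meiosis, at 41.02 ± 14.6. *matmc*, from the minus mating-type cassette, stood at 67.1 ± 10.98, and a second probe for it at 52.4 ± 12.1. Against the list's trend, *meu7* stood at 97.7, 98.8, 97.0 and 98.5 on arrays 1 to 4, *crs1*, for a meiotic cyclin, at 93.7 ± 1.8 and *mug122* at 93.4 ± 1.97. These 3 were bright on every array. *rec27* was above the other rec genes at 77.8 ± 21.1, from percentiles of 96.0 and 96.0 with the wild-type in Cy5, against 58.8 and 60.4 in Cy3.

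Kinetochore and CENP-A genes lay below the median of all genes as a list, at 37.6 over 13 probes, with 0 in the top decile. *sim3* itself read 2256, 2782, 1066 and 1163 on arrays 1 to 4, at 50.7 ± 5.09, in the middle of all genes. *mis12* was the highest at 69.8 ± 19.6, and *cnp1* read 2538, 1782, 724 and 633. The dimmest were *mal2* at 8.44 ± 2.47, *mis6* at 8.92 ± 4.74 and *sim4* at 13.4 ± 5.36, which encode parts of an inner kinetochore complex. These 3 were low on every array, at percentiles of 3.81 to 17.95, and *sim3* exceeded all 3 on each array.

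Repeated families read as groups only, since their members share sequence. The 12 probes for Tf2 retrotransposons had a median of 83.8, and 89.0 without the unrelated grids, in which 3 of them lie. The 23 probes for wtf genes, which act as spore killers in meiosis or are decayed copies of them, spread over nearly the whole range, from 3.72 (*wtf7-pseudo*) to 91.6 (*wtf8*), with a median of 48.9 like that of all genes. Of the wtf probes, 3 were in the top decile and 5 of 23 in the bottom.

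The 20 lowest probes ran from *toe3* (2.39) and *mug9* (2.38) down to SPBC1289.14 (0.826) and *erg26* (0.777). Between them, in descending order, were SPAC1348.06c, *mug153*, SPAPB24D3.05c, SPBC56F2.05c, *mug96*, SPCP20C8.02c, SPAPB1A11.03, *taf7*, *eos1*, SPAC30D11.02c, *sod22*, *prp10*, *cmp7*, *git1*, SPBPB2B2.05 and SPAC1348.14c. The lowest 100 held 84 genes of no list, 12 of mating and meiosis, and *arg3*, *rpc17*, *frp1* and *wtf7-pseudo*. Most gene probes of the array are in no list, and 135 of all 4829 are in the mating and meiosis list. The next gene above the 20 had a rank level of 2.45, and the boundary of the lowest 100 lay between 4.97 and 4.98.

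On 4458 of the 4829 probes the wild-type signal exceeded the 95th percentile of the empty spots on all 4 arrays, and on 5 it did so on 0 arrays. These 5 were *prp10*, *git1*, SPBPB2B2.05, SPBC1289.14 and *erg26*. *erg26*, which encodes an enzyme of ergosterol synthesis, read 21.8, -3.75, -1.25 and 1.25 on arrays 1 to 4, and *prp10*, which encodes a core splicing factor, read 24.2, 8, 37.8 and 5.5. *prp10* is known to be essential for growth. All 8 spots of each of these 5 genes carried a scanner code, so none of the 5 has a value once coded spots are left out, and the count was then 0. Against the 99th percentile of the empty spots it was 15. A spot that carries no product and a transcript that is absent cannot be told apart in these data.

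A stricter floor was set by 3 probes for E. coli genes, each in 64 spots, whose median was 1283, 982, 504 and 276 on arrays 1 to 4. Above this median on all 4 arrays were 3390 gene probes (70.2%), and above it on 0 arrays were 126 (2.61%). Of the lowest 100 genes, 78 were above it on 0 arrays although 70 were above the empty spots on all 4. For these 78 the signal was no larger than that of probes for another organism, and their order is not meaningful. The floor was chosen after the data were seen. Of the lowest 100, 17 lie in the unrelated grids of array 3, against 439 of all 4829 gene probes.

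Rank levels were also set beside the names and places of the genes. The 3916 probes that carry a standard gene name had a median of 50.5 and the 706 with a systematic name only 41.2, and 117 of these 706 (16.6%) lay in the bottom decile, against 8.63% of the named genes. Among the 20 genes nearest each chromosome end, 88 probes had a median of 37.95, with 19 (21.6%) in the bottom decile and 4 in the top. The medians of chromosomes I, II and III were 48.2, 49.0 and 50.8.

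Probes whose systematic names begin with SPAPB or SPBPB had median rank levels below that of all genes, and read lowest on array 4. The 70 SPAPB probes had a median rank level of 34.0, from medians of 30.1, 45.1, 34.5 and 7.80 on arrays 1 to 4. The 29 SPBPB probes had a median rank level of 40.3, from medians of 37.9, 54.0, 42.6 and 9.08. On array 2 they thus exceeded the median of all genes (50). The SPAC probes, which make up most of chromosome I, had 48.7, 49.2, 50 and 48.5, so their median changed little on array 4. Single probes of other name classes did drop there. *dph3* (SPAC8F11.02c) stood at 84.3, 85.8, 86.4 and 0.332 on arrays 1 to 4, and SPCC191.03c at 80.2, 84.7, 70.4 and 0.518. Array 4 is the array with the other slide code. The part of that code in the drop was not tested, nor was the part of the names given by position. In the SPAPB24D3 clone, 5 of 10 probes (*toe3*, SPAPB24D3.02c, SPAPB24D3.05c, *pdr1* and *agl1*) were in the bottom decile and stood below the 9th percentile on every array, while *mag1* stood at 93.6, 90.8 and 93.2 on arrays 1 to 3 and at 5.90 on array 4.

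The spread between arrays set how finely genes can be ordered. The median SD of a percentile was 8.76 over all genes, 1.01 in the top decile, and 24.5 inside the unrelated grids against 8.22 outside them. In the middle of the range, genes a few percentiles apart therefore did not differ beyond the spread. The 5 largest SDs belonged to SPCC417.08, *pdc101*, *rpl1801*, *rpl302* and *tkt1*, with 47.3 to 49.0, and 4 of these 5, all but *rpl302*, lie in the unrelated grids. Without those grids 9 genes entered the highest 100, namely *sec27*, *rpl20-1*, *rps401*, *eft1*, *pdc101*, *adh1*, SPCC417.08, *rpl1801* and *tkt1*. *sec27*, which encodes a coat protein of transport vesicles, stood at 99.5, 99.5, 6.49 and 99.5 on arrays 1 to 4.

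**Figure D4:**
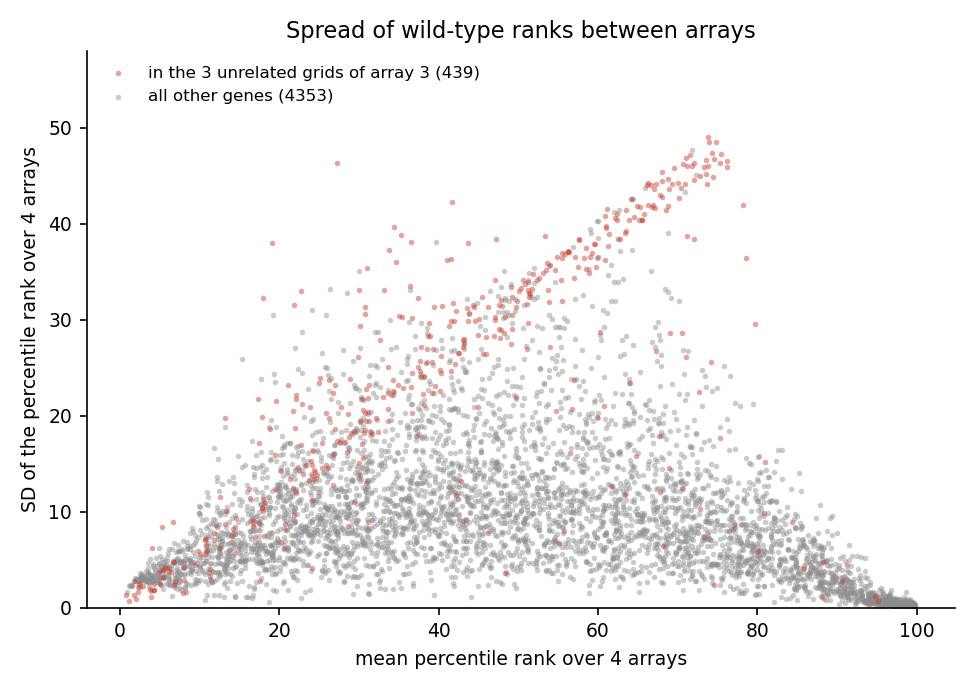
SD of the percentile over 4 arrays (vertical axis) against the mean percentile (horizontal axis), 1 point per gene, with the genes in the 3 unrelated grids of array 3 in red and the others in grey. Spread is smallest at the top, with a median SD of 1.01 in the top decile, and most of the genes with the largest SD are red.

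Levels also differed between probes of the same gene and between positions of the same product. For 31 genes with 2 differently named probes, the rank levels of the 2 probes differed by a median of 22.1 percentiles, and by up to 78.0 in *gpd1*, for a glycerol phosphate dehydrogenase, whose probes stood at 91.4 and 13.4. For 11 products printed at 2 positions under the same name the median difference was 36.2. Both are larger than the median SD over arrays of 8.76. Some of the gaps involve the unrelated grids, as for SPCC417.08, at 73.8 against 97.2 for the *tef3* probe, and at 98.3 without those grids. On the dilution series of the Ef1-b control, the undiluted spots were 29.3 times as bright as the 32-fold dilution on array 4. On arrays 1, 2 and 3 they were 1.14, 0.767 and 0.740 times as bright. For the luciferase control the same ratio was 21.96 on array 4, and 0.9149, 0.603 and 0.9625 on arrays 1, 2 and 3. On arrays 1 to 3 the signal of both controls thus did not follow the amount given by the label. Whether the names given by position hold for every spot of arrays 1 to 3 was not tested.

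The first comparison asks whether the wild-type levels depend on the dye. limma fitted the log2 levels of the 4 wild-type channels, 2 in Cy5 and 2 in Cy3, over 4792 genes. No gene was called at an adjusted p below 0.05 (0 of 4792, percent called 0), with 419 at an unadjusted p below 0.05, and the smallest adjusted p was 0.249. That gene was *rec27*, with log2 levels of 13.96 and 14.00 in Cy5, against 11 and 11.01 in Cy3, a difference of 2.98 (SE 0.22). Its dyes did not overlap, which follows in part from its choice as the top gene of this fit. *rec27* was the single gene called (0.0229% of 4358 genes) when the unrelated grids were left out, at 2.90 (SE 0.22, adjusted p = 0.0329 from limma).

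After *rec27* the genes with the highest moderated t were SPBC1709.03 (2.51, SE 0.28), *tas3* (1.97, SE 0.23), *rpb8* (1.97, SE 0.25) and *utp5* (1.73, SE 0.22). The lowest were *hsp78* (-1.69, SE 0.26), *urg1* (-1.51, SE 0.23), SPBC30D10.14 (-1.39, SE 0.22), *tps3* (-1.62, SE 0.27) and *spi1* (-1.49, SE 0.25). None of these 9 passed the test, with adjusted p of 0.523 to 0.545 from limma. *hsp78* encodes a mitochondrial chaperone, *tps3* a protein of trehalose synthesis and *spi1* the Ran GTPase. *urg1*, which uracil induces, stood at percentiles of 18.6 and 28.7 in Cy5, against 79.5 and 76.0 in Cy3. Its rank level of 50.7 ± 31.6 lies between the dyes. The gap between the dyes follows in part from its choice by t. Without array 1 limma called 111 genes, 10 of them higher in Cy5 and the rest lower, with the remaining Cy5 array assumed to vary like the others.

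The second comparison asks whether the wild-type RNA on the sim3-205 arrays read like that on the sim3-143 arrays. limma called 0 of 4792 genes (percent called 0), with 126 at an unadjusted p below 0.05 and a smallest adjusted p of 0.856. The genes with the lowest moderated t were *pmc1* (-2.49, SE 0.25), *arv1* (-2.19, SE 0.26), *sen2* (-2.85, SE 0.35), SPBPB2B2.16c (-2.42, SE 0.31) and *izh2* (-1.74, SE 0.27), with adjusted p of 0.856 to 0.963 from limma. *pmc1* stood at percentiles of 1.51 and 1.82 on the sim3-205 arrays, against 69.1 and 68.5 on the sim3-143 arrays, a gap that follows in part from its choice by t. All 5 lie in the unrelated grids of array 3, and 4 of the 5 have names that begin with SPAPB or SPBPB, the classes that were low on array 4.

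The highest in this comparison were *rep1* (1.60, SE 0.28), *mis12* (1.28, SE 0.25), *eos1* (2.38, SE 0.52), *nmt1* (1.24, SE 0.28) and *adh8* (1.08, SE 0.25), each with an adjusted p of 0.963 from limma. *rep1*, *eos1* and *nmt1* were among the lowest 100 genes. *mis12*, for a kinetochore protein, and *adh8* were not. *mis12* stood at 86.1 and 86.8 on the sim3-205 arrays, against 57.7 and 48.4 on the sim3-143 arrays, a gap that again follows in part from its choice by t. The fit called 52 genes without array 3 and 231 without array 4, each time with the remaining sim3-205 array assumed to vary like the others.

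The third comparison sets the mutant channel beside the wild-type one on the same arrays, over both alleles. The order of genes was much the same, with Spearman correlations across genes of 0.963, 0.900, 0.727 and 0.954 on arrays 1 to 4, and 0.887 on array 3 without its unrelated grids. Of the highest 100 wild-type genes, 85 were also in the highest 100 of the mutant channel. limma called 0 of 4792 genes (percent called 0), with 546 at an unadjusted p below 0.05 and a smallest adjusted p of 0.0651. Without the unrelated grids 11 of 4358 genes (0.252%) were called, all higher in the mutants.

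The genes with the highest moderated t were *obr1* (1.62, SE 0.14), *hsp9* (1.94, SE 0.17), *urh1* (1.05, SE 0.11), *nop14* (1.49, SE 0.16) and the retrotransposon *Tf2-3* (1.48, SE 0.16), as log2 ratios of mutant over wild-type. All 5 were among the 11 called without those grids, and all were above 0 on each of the 4 arrays. They were picked by t from the same ratios, so both follow in part from the choice. *hsp9* encodes a small heat-shock protein, which stood at a rank level of 98.7 in the mutants and 95.1 ± 0.915 in the wild-type. The Tf2 probes as a list had a median of 95.5 in the mutants and 83.8 in the wild-type, or 89.0 in the wild-type without the unrelated grids. The lowest were *mce1* (-0.52, SE 0.10), *eca39* (-0.72, SE 0.14), *tim18* (-0.59, SE 0.12), *lys1* (-0.50, SE 0.10) and *zuo1* (-0.53, SE 0.11), with adjusted p of 0.198 to 0.235 from limma, so none of these fell by the test.

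**Figure D5:**
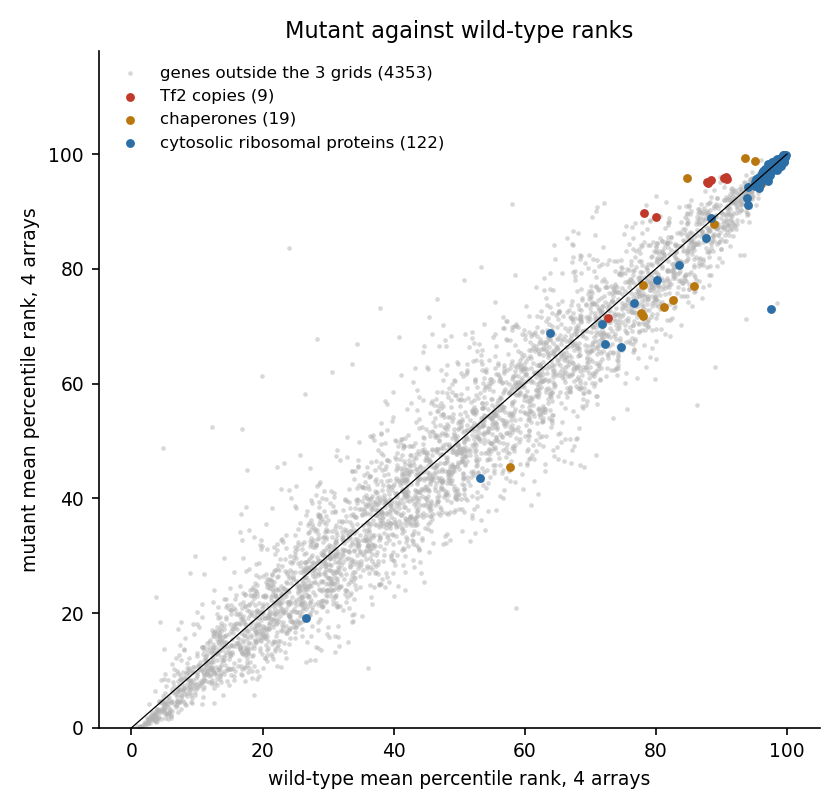
Mean percentile of the mutant channel (vertical axis) against that of the wild-type channel (horizontal axis) over 4 arrays, 1 point per gene outside the 3 unrelated grids, with the line of equal ranks in black. Ribosomal protein genes lie along the line at its upper end, and most Tf2 copies lie above it, with a list median of 95.5 in the mutants and 83.8 in the wild-type over all 12 probes.

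*sim3* and *cnp1* did not pass the test between mutant and wild-type. *sim3* had a rank level of 49.8 in the mutants and 50.7 ± 5.09 in the wild-type, with a log2 ratio of -0.01 (SE 0.12, adjusted p = 0.973 from limma). *cnp1* stood at 35.3 in the mutants and 35.4 ± 12.6 in the wild-type, with a log2 ratio of 0.05 (SE 0.12, adjusted p = 0.879). Both alleles are missense mutants, so the level of *sim3* does not check the labels. The ribosomal protein probes had a median of 97.9 in both channels, and the mating and meiosis probes 25.9 in the mutants and 26.6 in the wild-type. Without array 3 the fit called 156 genes, 94 higher and 62 lower in the mutants.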

How the data were processed

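Total RNA of wild-type and *sim3* mutant cultures was co-hybridised to 4 two-colour arrays with the dyes swapped within each allele. The authors deposited scanner intensity per spot (median signal and median local background of both dyes), which were used here without scaling. Their log2 ratio tables of mutant over wild-type hold the study's own comparison and were not used. Each spot took its name from its place in the grid, as laid out for the sim3-143 array with the mutant in Cy3. Spots with scanner code 1 or 4 were left out, 8 to 60 an array, and those with no code or code 2 (3 on array 1) were kept. Of the 4829 probe names, 4659 (96.5%) matched the RefSeq table of assembly ASM294v3, used for names, chromosomes and gene order only. Ranks were taken on plain signal minus background (Python 3.11.15, pandas 2.3.3, numpy 2.4.6, matplotlib 3.10.9). For the tests, limma 3.58.1 in R 4.3.3 used normexp background correction (offset 50), then quantile scaling of the wild-type channels, or loess within each array (span 0.3) for the ratios, with Benjamini-Hochberg adjusted p below 0.05 as the call. The study's methods name Lowess per spot and per chip in GeneSpring. The code was tested on simulated data. Named were the 20 highest and 20 lowest genes, the 5 with the largest SD, the 5 highest and 5 lowest of each fit by moderated t, list members, *sim3* and *cnp1*, and others where the text says why. Members and lists were chosen with earlier results of these data known. The number of arrays limits the precision. A planned list of tRNA synthetase genes was not used, and no sequences are shown.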

Additional observations from a re-analysis of the deposited data

Results flagged for a closer look

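In each of 20 gene lists and 88 single genes the array farthest from the others was examined, and by chance about 1 in 20 such groups of 4 stands apart. Among lists, the median percentile of actin and tubulin was 72.65 on array 2 and that of the glucose-repressed genes 37.75 on array 4, each apart from the other 3 arrays. *cpc2* stood apart at 98.83 on array 2 and *ubi3* at 99.5 on array 1, both by under 1 percentile.

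Array 3 was far below the other 3 arrays for 9 genes that lie in its unrelated grids. Its percentiles were 6.487 for *sec27*, 2.021 for *pdc101*, 5.751 for *adh1*, 4.684 for *eft1*, 7.378 for *rps401* and 1.306 for *rpl1801*. They were also 3.44 for *rpn2*, 14.61 for *ght8* and 6.073 for *Tf2-6*. Array 4 alone was low for *rpl302*, at 0.3317, and for *ndc80*, a kinetochore gene, at 8.541.

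For 8 of the dimmest genes array 3 was the highest array. Its percentiles were 2.798 for *erg26*, 4.953 for *prp10*, 4.87 for *git1*, 4.601 for SPBPB2B2.05, 3.223 for SPBC1289.14, 4.715 for *cmp7*, 4.902 for *sod22* and 6.415 for *taf7*. Without the unrelated grids the rank levels of these 8 ran from 0.0208 (SPBC1289.14) to 0.297 (*taf7*), against 0.777 to 1.83 with them. The part of those grids in the height of array 3 was not tested.

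Control probes outside the ranking also gave signal above the empty spots in the wild-type channel of every array. The lowest array median was 232, 237.5 and 435.5 for the E. coli probes 1, 2 and 3, 2009 for luciferase, 1628 for GFP and 1194 for GST. Whether RNA for these probes was added to the samples is not given in the sources used here.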

How the results depend on the processing

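The median rank level of ribosomal protein probes was 97.9 and became 98.08 without the unrelated grids and 98.07 with the median of the percentiles, and leaving out 1 array at a time it ran from 97.84 to 98.09. Genes above the empty spots on 0 arrays numbered 5, and 15 against the 99th percentile of the empty spots, 0 with all coded spots left out (the 5 then have no value), and 126 against the E. coli median, which was chosen after seeing the data. Of the highest 100 genes, 85 (mutant channel) to 99 were kept under the alternatives. The other 18 lists moved by more than the spread of their array medians in 30 of 216 alternatives, by -11.5 to 17.4 percentiles. The dye comparison, with 0 calls, gave 1 without the unrelated grids and 0 to 111 with an array left out. The comparison of wild-type on sim3-205 and sim3-143 arrays, with 0 calls, gave 0 to 231 with an array left out (52 without array 3, 5 higher and 47 lower, and 231 without array 4, 23 higher and 208 lower). Mutant against wild-type, with 0 calls, gave 1 with plain subtraction (*ppk31*), 7 among genes above the empty spots on 4 arrays, 3 with a dye coefficient (*zym1*, *hsp16* and *obr1*), 11 without the unrelated grids and 0 to 156 with an array left out. The causes were not tested. The comparison of mutant with wild-type is paired within arrays by its construction. With the other factor as a second term, the dye and array-set comparisons still gave 0 calls, with a smallest adjusted p of 0.525 and 0.767 from limma. Saturation limits the order at the top, background the order at the bottom, and with 4 arrays and unknown RNA sources the spread may be technical.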

Other observations

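Some probes outside the unrelated grids were far from the others on a single array. *bio2*, for biotin synthase, stood at 77.8, 71.4 and 89.8 on arrays 2 to 4 and at 0.580 on array 1. *zym1* had a rank level of 83.6 in the mutants and 24.01 in the wild-type, and *ppk31* 48.8 in the mutants and 4.85 in the wild-type. All 3 were picked for their values, and in the comparison of mutant with wild-type described above *zym1* had an adjusted p of 0.198 and *ppk31* of 0.171 from limma. With a dye coefficient *zym1* passed (adjusted p = 0.0178), and with plain background subtraction *ppk31* did (adjusted p = 0.0418).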
